A study of Mus musculus with 4 samples.

Results

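The 10 genes described here encode transcription factors of the stomach's gland lineages. They are the chief, pit and foregut factors of a given list: Bhlha15 (protein MIST1), Xbp1 and Nr5a2, listed for chief cells, Foxq1 and Spdef, listed for pit and other mucous cells, and Foxa1, Foxa2, Gata4, Gata6 and Hnf4a, listed for the foregut epithelium in general. All 10 have a row among the 55335 of the deposited table, and 9 reached the filter of the test, a mean of at least 1 CPM (counts per 1000000 reads in genes); Nr5a2 did not. RNA was profiled by SMART-SeqII, a method that amplifies full-length cDNA from small inputs. The cells were epithelial, labelled for EpCAM and sorted alive from the corpus, the acid-producing body of the stomach, of mice of strain C57BL/6 at 6 to 8 weeks of age. Every mouse, in both fractions, carried Iqgap3-2A-tdTomato, an allele that reports Iqgap3 by tdTomato fluorescence, so the sort follows reporter brightness and not a lineage marker. IQ3pos holds the Iqgap3high cells and IQ3neg the Iqgap3low/neg cells, with 2 libraries each. IQ3pos_1909A and IQ3neg_1909B are pools of 3 mice each, and IQ3pos_1910A and IQ3neg_1910B are pools of 4 mice each. The labels do not say whether libraries of one number came from the same mice, and with 2 libraries per fraction the p-values measure the spread between pools, part of which may be technical.

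The corpus epithelium renews itself from progenitors in the isthmus of each gland. Cells that move up become mucus-producing pit cells, and cells that move down pass through the mucous neck state to become chief cells, which store digestive enzymes in large granules. MIST1, a basic helix-loop-helix factor, scales up the secretory apparatus of mouse chief cells and other serous cells, and XBP1, the factor of the IRE1 arm of the unfolded protein response, drives the endoplasmic reticulum capacity that such cells need. FOXA and GATA factors open and activate gut endoderm genes, and HNF4A is a nuclear receptor of digestive epithelia.

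Depth ran from 90714929 reads (IQ3pos_1909A) to 418401262 reads (IQ3neg_1910B) in genes, and 1 read was worth 0.0110 CPM at most. The median gene was 0.68 higher on the log2 scale, or 1.60-fold, in IQ3pos than in IQ3neg. After TMM scaling, which corrects for library composition and draws the typical gene toward 0 by design, the difference was 0.04. The colipase gene Clps alone stood at 340995 and 277067 CPM in IQ3neg_1909B and IQ3neg_1910B, against 31717 and 7144 CPM in IQ3pos_1909A and IQ3pos_1910A. Genes above 0 numbered 21757 and 21823 in the IQ3neg libraries, against 29724 and 30017 in the IQ3pos libraries. The part of either in the shift of the median gene was not tested. Every difference below, unless another scale is named, is limma's on log2(CPM + 1), IQ3pos minus IQ3neg, with its moderated SE. For the tested members the value on log2(TMM-scaled CPM + 1) is given beside it. As for the labelled tissue, the acid pump genes Atp4a and Atp4b were above 100 CPM in every library, while Cdx2, a factor of the intestine, was listed at 0 in all 4 libraries and Krt5, a keratin of squamous epithelium, had 1 read in 1 of them.

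Bhlha15 was low in IQ3pos and detected well in IQ3neg, Foxa1, Foxq1, Gata4, Gata6, Hnf4a and Spdef were higher in both IQ3pos libraries in CPM, and Xbp1 and Foxa2 overlapped. None of the 9 tested members passed limma's test over all 13019 genes (smallest limma adjusted p = 0.189, for Bhlha15). The background was the same: 0.0% of all tested genes were called higher and 0.0% lower in CPM, and 0.0461% and 0.184% with TMM-scaled CPM. At an unadjusted p under 0.05, 3 members were higher (Foxq1, Foxa1 and Hnf4a) and 1 lower (Bhlha15) in CPM, against 18.2% and 4.98% of all genes; with TMM-scaled CPM 0 were higher and 2 lower (Bhlha15 and Xbp1), against 7.63% and 8.32% of all genes. EdgeR's quasi-likelihood test on the recovered reads called 0 members after adjustment, where it called 0.0654% of all genes higher and 0.226% lower, and at an unadjusted p under 0.05 it had 0 members higher and 2 lower (Bhlha15 and Xbp1), where 5.48% and 11.0% of all genes were. DESeq2 called 1 member, Bhlha15, as lower, in a fit that called 2.54% of all genes higher and 10.1% lower. A limma fit on TMM-scaled CPM with the library number as a block called 1 member, Xbp1, as lower (adjusted p = 0.0453), in a fit that called 1.86% of all genes higher and 1.19% lower.

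**Figure D1:**
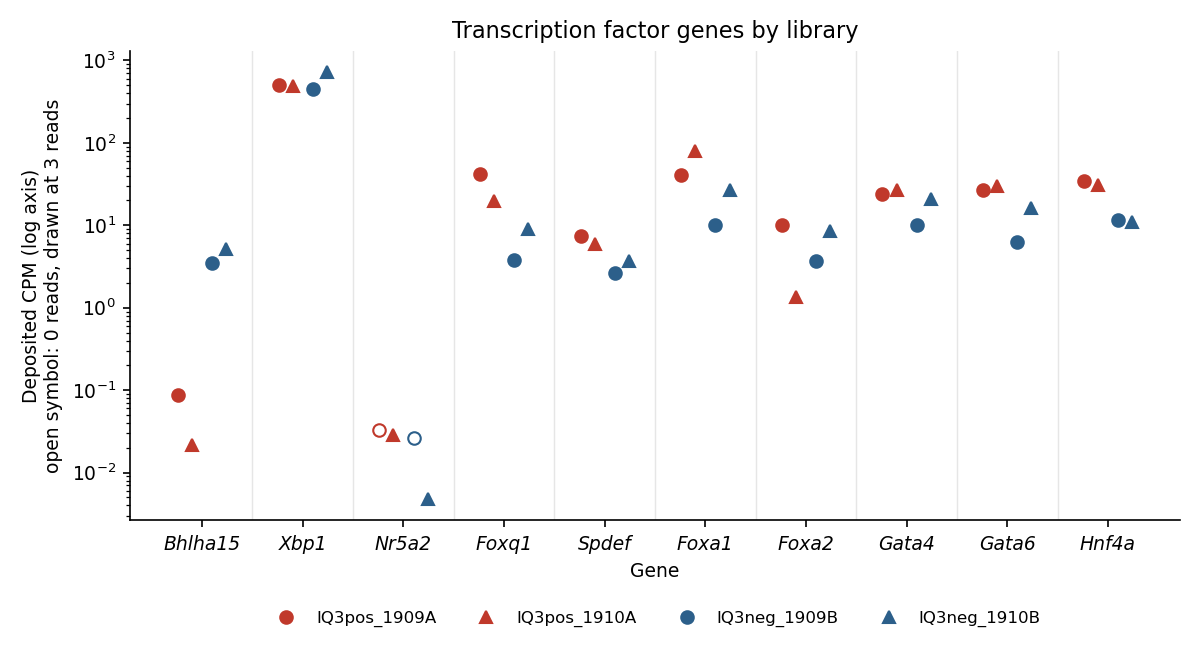
Deposited CPM (vertical log axis) of the 10 genes in each library, IQ3pos in red and IQ3neg in blue, with circles for the 3-mouse pools and triangles for the 4-mouse pools; an open symbol marks 0 reads, drawn at the level of 3 reads. Bhlha15 lies below 0.1 CPM in both IQ3pos libraries and above 3 CPM in both IQ3neg libraries, Xbp1 stands far above the rest, and Nr5a2 is near the limit of detection.

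In 6 of the 9 tested members both IQ3pos libraries lay above both IQ3neg libraries in CPM, where 40.9% of all tested genes did, and in 1 both lay below, where 14.2% did. With TMM-scaled CPM these counts were 5 members (background 24.7%) and 2 members (background 23.0%). Among the 5, Spdef was nearly tied, at 4.34 scaled CPM in IQ3pos_1910A against 4.26 in IQ3neg_1910B. The median log2 difference of the 9 was 0.89 beside 0.68 for all tested genes, and 0.27 beside 0.04 with TMM-scaled CPM.

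Levels per length were compared as CPM per kilobase of annotated exon. Xbp1 stood at 155 and 150 CPM per kilobase in IQ3pos_1909A and IQ3pos_1910A, against 138 and 222 in IQ3neg_1909B and IQ3neg_1910B, far above every other member in each library. Behind it in mean CPM per kilobase in IQ3pos came Foxa1 (18.2), Hnf4a (6.73), Gata4 (6.54), Foxq1 (6.36), Gata6 (4.37), Spdef (2.87), Foxa2 (2.40), Bhlha15 (0.0157) and Nr5a2 (0.00243). Neighbours from Hnf4a to Gata6 overlapped across the IQ3pos libraries, as did Spdef and Foxa2, while Foxa1 stood clear of Hnf4a and Bhlha15 far below Foxa2. Bhlha15 and Nr5a2 rested on 6 and 8 reads in IQ3pos_1910A, so their order there lies within counting error. In IQ3neg the mean CPM per kilobase ran from Foxa1 (5.50) through Gata4 (3.95), Foxa2 (2.60), Hnf4a (2.35), Gata6 (1.71), Spdef (1.36), Foxq1 (1.33) and Bhlha15 (1.23) to Nr5a2 (0.000405). There every pair of neighbours from Foxa1 to Bhlha15 overlapped. Bhlha15 thus overlapped Foxq1 and Spdef per kilobase in IQ3neg and lay far below both in IQ3pos. The place of Foxq1 in these rankings is uncertain. Of its exon bases, 3200 are shared with a gene on the opposite strand, and how reads there were counted is not stated.

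Bhlha15 showed the widest gap between the fractions among the 9 tested genes. Its level was 0.0882 and 0.0215 CPM in IQ3pos_1909A and IQ3pos_1910A, against 3.48 and 5.15 CPM in IQ3neg_1909B and IQ3neg_1910B. The IQ3pos levels came from 8 and 6 reads and the IQ3neg levels from 400 and 2155 reads, and the fractions do not overlap. Between the 3-mouse pools Bhlha15 was 39.4-fold lower in IQ3pos (95% exact interval 19.8 to 92.0, counting error only), and among the 4-mouse pools 239.6-fold lower (109.9 to 654). The log2 difference was -2.32 (SE 0.86, limma adjusted p = 0.189), a scale that understates it because the IQ3pos values lie far below the added 1 CPM, and -2.65 (SE 0.90, adjusted p = 0.257) with TMM-scaled CPM. EdgeR gave -7.65 (adjusted p = 0.270) and DESeq2 gave -7.16 (SE 1.15, adjusted p = 2.06e-08), so the call depended on the tool. On the limma scale, 5.15% of all tested genes had a lower difference in CPM and 5.75% with TMM-scaled CPM. Bhlha15 reached the filter only through its IQ3neg levels, so its tests and this rank are no separate support for the gap. In bulk libraries, fewer cells that express a gene and less RNA of it per cell cannot be told apart.

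Bhlha15 lies on the plus strand of chromosome 5 of GRCm38, at 144190286 to 144194441, with 1 annotated transcript of 2 exons. Promoters from 250 bases before to 50 bases after the start were available from RefSeq (GRCm38.p6) for 7 of the 10 genes, with 11 windows in all. They were searched on both strands for ACGTG, the core of elements bound by XBP1, then for CATATG, an E-box that MIST1 binds, for TGTTTAC of the forkhead factors, for AGATAA of the zinc finger family of Gata4 and Gata6, and for CAAAGTCCA, an element of HNF4A. The windows of Bhlha15, Spdef, Foxa1 and Hnf4a are shown because their levels did not overlap between the fractions and because each holds a match, in capitals, for a factor encoded by another gene of the list or, for Foxa1, by its own family. They cover chr5:144190036-144190335 on the plus strand, chr17:27728902-27729201 on the minus strand, chr12:57546062-57546361 on the minus strand and chr2:163506607-163506906 on the plus strand, written 5′ to 3′ along the gene.
Bhlha15: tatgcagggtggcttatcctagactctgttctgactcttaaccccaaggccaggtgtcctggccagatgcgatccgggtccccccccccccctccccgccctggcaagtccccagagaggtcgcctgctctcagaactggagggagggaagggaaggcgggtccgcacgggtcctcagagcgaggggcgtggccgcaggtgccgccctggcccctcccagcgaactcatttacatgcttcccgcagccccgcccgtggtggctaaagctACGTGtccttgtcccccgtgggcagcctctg
Spdef: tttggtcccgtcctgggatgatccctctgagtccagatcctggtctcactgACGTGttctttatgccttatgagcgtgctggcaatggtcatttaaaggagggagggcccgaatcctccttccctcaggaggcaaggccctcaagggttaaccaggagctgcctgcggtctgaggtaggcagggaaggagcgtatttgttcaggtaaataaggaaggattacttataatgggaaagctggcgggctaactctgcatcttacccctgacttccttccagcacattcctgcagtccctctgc
Foxa1: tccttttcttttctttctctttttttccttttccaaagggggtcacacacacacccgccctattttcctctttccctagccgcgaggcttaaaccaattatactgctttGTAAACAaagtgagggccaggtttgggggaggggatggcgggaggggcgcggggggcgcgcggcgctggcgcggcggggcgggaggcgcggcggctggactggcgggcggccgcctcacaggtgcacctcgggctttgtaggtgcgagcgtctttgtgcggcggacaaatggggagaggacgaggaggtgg
Hnf4a: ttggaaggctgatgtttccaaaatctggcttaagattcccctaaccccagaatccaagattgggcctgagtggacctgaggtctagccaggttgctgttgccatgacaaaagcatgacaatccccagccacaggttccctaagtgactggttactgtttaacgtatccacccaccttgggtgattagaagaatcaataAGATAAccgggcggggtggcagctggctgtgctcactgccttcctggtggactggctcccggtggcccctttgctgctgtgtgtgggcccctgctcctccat
In Bhlha15 the match to ACGTG begins at base 20 after the start, and in Spdef it begins 199 bases before the start; 19.62% of all 32851 promoter windows hold that motif. In Foxa1 the match to TGTTTAC, on the opposite strand, begins 141 bases before the start (3.65% of all windows), and in Hnf4a the match to AGATAA begins 52 bases before it (11.18%). Each shown window holds 1 match, so none overlap. Another Hnf4a window, not shown, held no match to any of these motifs, and neither did the Xbp1 window. AGATAA also matched in a window of Nr5a2 and in a window of Foxa2. The RefSeq start of Foxa1 used here lies within the gene as GENCODE places it on chromosome 12, at 57540628 to 57546916 on the minus strand. A match of letters in a window is a description only, and no binding was measured.

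Among 5 genes reported downstream of MIST1 in mouse secretory cells, 2 were below 0.1 CPM in both IQ3pos libraries and without overlap, as Bhlha15 was. The other 3 overlapped between the fractions in CPM. Of all tested genes, 14.2% were lower in both IQ3pos libraries in CPM. Rab26, a small GTPase of secretory granules, stood at 0.0441 and 0.0179 CPM in IQ3pos_1909A and IQ3pos_1910A, against 10.9 and 6.24 CPM in IQ3neg_1909B and IQ3neg_1910B. Serpini1, a serine protease inhibitor gene, stood at 0.0441 and 0.0215 CPM in the same IQ3pos libraries, against 5.04 and 15.5 CPM in the IQ3neg libraries. Both rest on 4 to 6 reads per IQ3pos library and, like Bhlha15, reached the filter only through their IQ3neg levels. Neither passed limma (adjusted p = 0.132 and 0.141) or edgeR (adjusted p = 0.219 and 0.198), while DESeq2 called both lower (adjusted p = 5.51e-13 and 3.12e-13). Rab3d, the GTPase that coats zymogen granules, stood at 26.5 and 34.3 CPM in IQ3pos and 28.0 and 57.5 CPM in IQ3neg, and Gjb1, a gap junction gene, at 31.2 and 94.7 in IQ3pos, against 9.49 and 35.4 CPM in IQ3neg. Both genes overlapped between the fractions in CPM. With TMM-scaled CPM Rab3d no longer overlapped and was lower in IQ3pos (log2 difference -1.15, SE 0.47, adjusted p = 0.316 by limma). Atp2c2, a calcium pump gene, did not reach the filter and was above 1 CPM only in IQ3neg_1910B, at 2.81 CPM. Of the 4 tested genes of this list, 0 passed limma. In CPM 2 were lower in both IQ3pos libraries, and with TMM-scaled CPM 3 were, beside 23.0% of all tested genes on that scale. Their median log2 difference was -1.79 in CPM beside 0.68 for all tested genes, and -2.34 beside 0.04 with TMM-scaled CPM. A response of these genes to MIST1 was not tested.

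**Figure D2:**
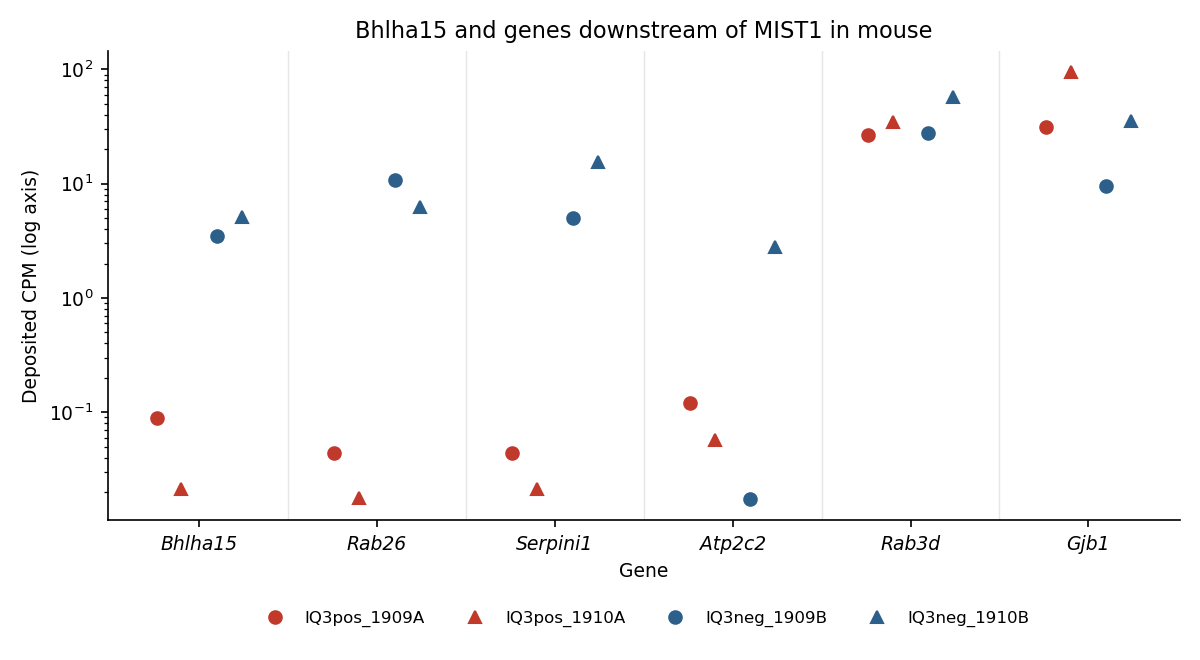
Deposited CPM (vertical log axis) of Bhlha15 and the 5 genes listed downstream of MIST1, by library, with the colours and symbols of the plot of the 10 genes. Rab26 and Serpini1 lie below 0.1 CPM in both IQ3pos libraries, as Bhlha15 does, while Rab3d and Gjb1 stay above 9 CPM in every library.

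Markers of several cell types moved with Bhlha15. The 8 listed chief cell products summed to 61974 and 22080.5 CPM in IQ3pos_1909A and IQ3pos_1910A, against 518103 and 503983 CPM in IQ3neg_1909B and IQ3neg_1910B. Most of the IQ3neg sums was Clps, the colipase gene, at 340995 and 277067 CPM, against 31717 and 7144 CPM in IQ3pos. Next came Pla2g1b, at 102275 and 99519 CPM in IQ3neg, against 10919.5 and 2395 CPM in IQ3pos. In CPM 7 of the 8 were lower in both IQ3pos libraries. Pga5 overlapped, at 110 and 154 CPM in IQ3pos, against 44.0 and 165 CPM in IQ3neg. Pgc, the pepsinogen C gene, stood at 11807 and 9814 CPM in IQ3pos, against 37522 and 68224 CPM in IQ3neg. The 8 enteroendocrine markers summed to 489 and 289 CPM in IQ3pos and 16265 and 10284 CPM in IQ3neg, with 7 of 8 lower in both IQ3pos libraries. Of 14 markers of pancreatic acinar cells, another MIST1-expressing type, 8 were tested and 7 lay lower in both IQ3pos libraries, and the 14 summed to 45.7 and 25.9 CPM in IQ3pos and 1225 and 1248 CPM in IQ3neg. The acinar carboxypeptidase genes Cpa1 and Cpb1 did not exceed 0.0441 CPM in any library. Beside each of these counts stands the 14.2% of all tested genes that were lower in both IQ3pos libraries in CPM. The part of these cell types in the Bhlha15 difference was not tested.

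Xbp1 was the most abundant member by a wide margin and was abundant in both fractions. Its level was 502 and 488 CPM in IQ3pos_1909A and IQ3pos_1910A, against 448 and 721 CPM in IQ3neg_1909B and IQ3neg_1910B. In CPM the IQ3pos values fall between the IQ3neg ones, and the log2 difference was -0.20 (SE 0.31, limma adjusted p = 0.723). With TMM scaling Xbp1 stood at 399 and 361 scaled CPM in IQ3pos, against 653 and 844 in IQ3neg, without overlap, and the difference was -0.97 (SE 0.24, adjusted p = 0.197, unadjusted p = 0.00780). Within the 3-mouse pools the TMM-scaled level was 1.64-fold lower in IQ3pos, and within the 4-mouse pools 2.34-fold lower. Xbp1 lies on chromosome 11 at 5520659 to 5525893. The gene-level values do not separate the spliced messenger that encodes the active factor from the unspliced one.

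The 29 listed XBP1 targets and unfolded protein response genes lay on both sides of 0 on each scale. In CPM both IQ3pos libraries were higher for 15 and lower for 3, beside 40.9% and 14.2% of all tested genes, and with TMM-scaled CPM higher for 4 and lower for 8, beside 24.7% and 23.0%. Their median log2 difference was 0.54 beside 0.68 for all tested genes, and -0.23 beside 0.04 with TMM-scaled CPM, below the median gene on both scales. Limma called 0 of the 29 on either scale, and edgeR called 1, Herpud1. Herpud1, a component of endoplasmic reticulum degradation, stood at 939 and 1125 CPM in IQ3pos_1909A and IQ3pos_1910A, against 1504 and 1818 CPM in IQ3neg_1909B and IQ3neg_1910B. It was lower in both IQ3pos libraries on both scales, at -0.69 (SE 0.25, adjusted p = 0.187) in CPM and -1.45 (SE 0.20, adjusted p = 0.0703) with TMM-scaled CPM, and edgeR called it lower (log2 difference -1.50, adjusted p = 0.0292) while DESeq2 did not (-1.47, adjusted p = 0.153). Dnajb9, a chaperone and a well-known XBP1 target, stood at 69.5 and 72.7 CPM in IQ3pos, against 90.9 and 143 CPM in IQ3neg. Hspa5, the main chaperone of the endoplasmic reticulum, overlapped at 1165 and 2004 CPM in IQ3pos, against 898 and 1435 CPM in IQ3neg. Canx and Ssr1, for calnexin and a subunit of the translocon, were higher in both IQ3pos libraries in CPM, at 4922 and 3397 CPM in IQ3pos against 1916 and 1934 CPM in IQ3neg for Canx, and at 2521 and 2676 CPM in IQ3pos against 1085 and 1019 CPM in IQ3neg for Ssr1. With TMM-scaled CPM their differences were 0.32 (SE 0.28) and 0.54 (SE 0.23).

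**Figure D3:**
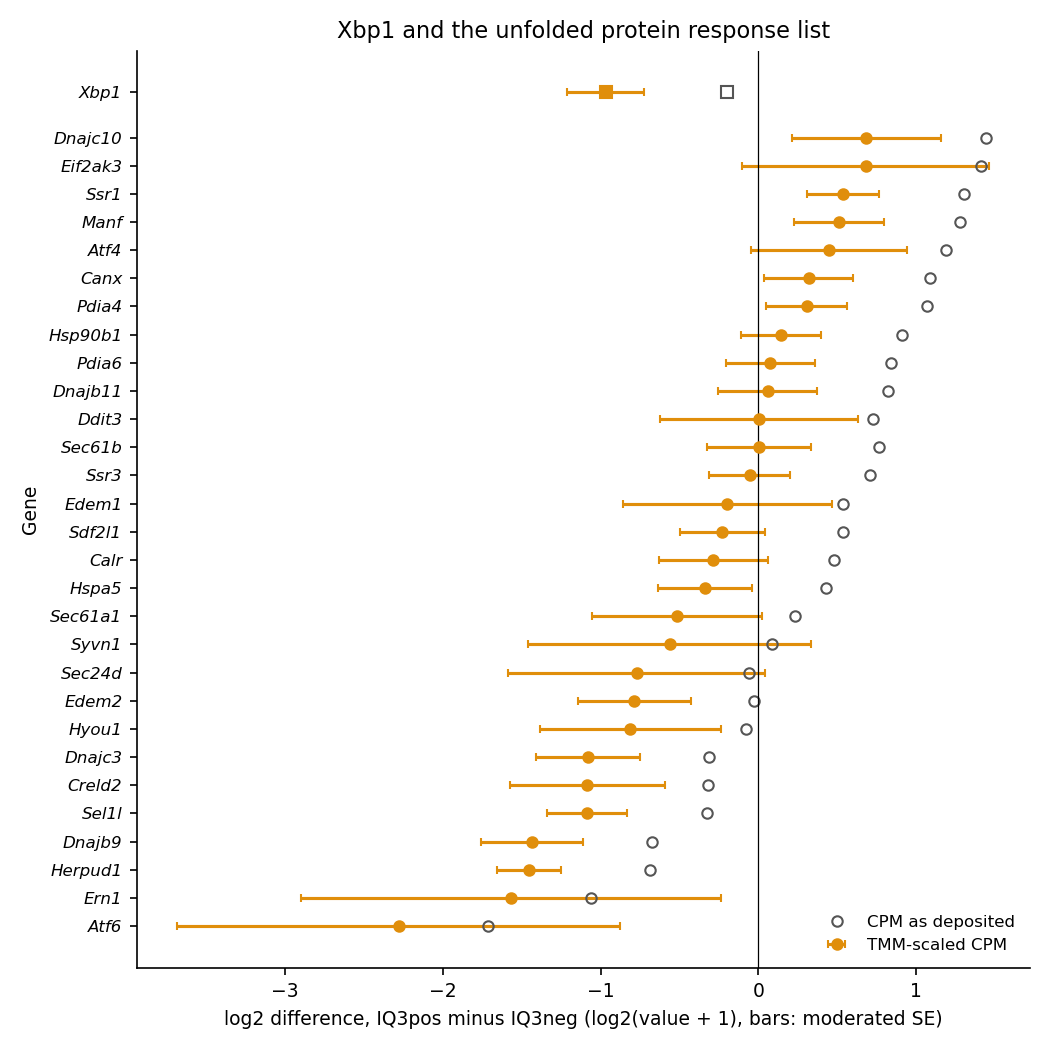
Log2 difference (IQ3pos minus IQ3neg, horizontal axis) of Xbp1 (squares) and the 29 genes of its list (circles), in TMM-scaled CPM with the moderated SE (filled, n = 2 libraries per fraction) and in CPM as deposited (open). Xbp1 lies at -0.97 on the TMM scale, and the list spreads to both sides of 0, from Atf6 and Ern1 at the low end to Dnajc10 and Eif2ak3 at the high end.

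Nr5a2, the gene of the nuclear receptor LRH-1, a regulator of acinar cells in the pancreas, was at the limit of detection in both fractions. It had 0 and 8 reads in IQ3pos_1909A and IQ3pos_1910A, against 0 and 2 reads in IQ3neg_1909B and IQ3neg_1910B. The upper limits that 0 reads allow, taken as 3 reads, are 0.0331 CPM in IQ3pos_1909A and 0.0261 CPM in IQ3neg_1909B, and the upper ends of the two-sided 95% exact Poisson intervals are 0.0407 and 0.0321 CPM in these libraries. In the 4-mouse pools the level was 0.0287 CPM in IQ3pos_1910A (95% exact Poisson interval 0.0124 to 0.0565), against 0.00478 CPM in IQ3neg_1910B (0.000579 to 0.0173). The ratio of IQ3neg to IQ3pos in these pools was 0.167 in CPM (95% exact interval 0.0173 to 0.836, counting error only) and 0.264 with TMM scaling (0.0273 to 1.32), an interval that includes equal levels. In the 3-mouse pools no level was detectable at this depth, and Nr5a2 was not tested.

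Foxq1, a forkhead factor needed in mice for Muc5ac expression in surface mucous cells, was higher in both IQ3pos libraries. Its level was 42.1 and 19.5 CPM in IQ3pos_1909A and IQ3pos_1910A, against 3.79 and 9.12 CPM in IQ3neg_1909B and IQ3neg_1910B. The log2 difference of 2.09 (SE 0.79, limma adjusted p = 0.193) was the largest among the tested members and exceeded that of 91.5% of tested genes, and it was 1.40 (SE 0.76, adjusted p = 0.421) with TMM-scaled CPM. The excess was uneven: 11.1-fold in CPM among the 3-mouse pools and 2.14-fold among the 4-mouse pools, or 6.06-fold and 1.35-fold with TMM scaling. Muc5ac stood at 464 and 685 CPM in IQ3pos, against 39.0 and 102 CPM in IQ3neg, so that IQ3pos_1910A had the more Muc5ac and the less Foxq1 of the IQ3pos libraries. Foxq1, on chromosome 13 at 31556134 to 31560976, shares 3200 exon bases with A530084C06Rik on the opposite strand. A530084C06Rik was listed at 0 in every library, and without a stated strand setting reads of such a pair cannot be told apart.

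Spdef, an ETS factor of mucus-secreting cells, was somewhat higher in both IQ3pos libraries in CPM. Its level was 7.39 and 5.86 CPM in IQ3pos_1909A and IQ3pos_1910A, against 2.61 and 3.64 CPM in IQ3neg_1909B and IQ3neg_1910B. The difference was 0.89 (SE 0.92, limma adjusted p = 0.578), near the 0.68 of the median gene, and 0.27 (SE 0.91) with TMM-scaled CPM. Among the 4-mouse pools the TMM-scaled ratio of IQ3neg to IQ3pos was 0.982 (95% exact interval 0.916 to 1.05, counting error only). That interval includes equal levels. The 7 pit cell products summed to 15055 and 15529 CPM in IQ3pos, against 8527 and 10256 CPM in IQ3neg, a sum of opposite parts. The 6 that were higher in both IQ3pos libraries on both scales summed to 12576 and 13170 CPM in IQ3pos, against 1418 and 1950 CPM in IQ3neg. These 6 were picked by that order, so the direction of their sums was fixed beforehand. Of all tested genes, 40.9% were higher in both IQ3pos libraries in CPM and 24.7% with TMM-scaled CPM. The seventh, Psca, a gene of a surface antigen, stood at 2479 and 2360 CPM in IQ3pos, against 7108 and 8306 CPM in IQ3neg, and was called lower with TMM-scaled CPM (limma log2 difference -2.43, SE 0.20, adjusted p = 0.0295). The ratio of Foxq1 to Spdef within a library, which no scaling between libraries changes, was 5.70 and 3.33 in IQ3pos_1909A and IQ3pos_1910A, against 1.45 and 2.50 in IQ3neg_1909B and IQ3neg_1910B.

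Of Foxa1 and Foxa2, close relatives that bind the same DNA element, Foxa1 was higher in both IQ3pos libraries and Foxa2 overlapped between the fractions. Foxa1 stood at 40.6 and 80.7 CPM in IQ3pos_1909A and IQ3pos_1910A, against 10.1 and 26.5 CPM in IQ3neg_1909B and IQ3neg_1910B. Both IQ3pos libraries lay above both IQ3neg libraries, at a difference of 1.74 (SE 0.67, limma adjusted p = 0.199) in CPM and 1.002 (SE 0.59, adjusted p = 0.466) with TMM-scaled CPM. The excess was 4.01-fold among the 3-mouse pools and 3.05-fold among the 4-mouse pools in CPM, or 2.19-fold and 1.93-fold with TMM scaling. Foxa2 was at 9.99 and 1.37 CPM in IQ3pos_1909A and IQ3pos_1910A, against 3.70 and 8.63 CPM in IQ3neg_1909B and IQ3neg_1910B. The fractions overlapped and the direction differed by library number, 2.696-fold higher in IQ3pos among the 3-mouse pools and 6.31-fold lower among the 4-mouse pools in CPM, or 1.47-fold higher and 9.97-fold lower with TMM scaling. The fitted difference was -0.40 (SE 1.16, limma adjusted p = 0.851) in CPM and -0.99 (SE 1.11, adjusted p = 0.679) with TMM-scaled CPM.

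Markers of tuft cells, a chemosensory type, were also low in IQ3pos_1910A. The 6 tuft markers summed to 603 and 137 CPM in IQ3pos_1909A and IQ3pos_1910A, against 398 and 1219 CPM in IQ3neg_1909B and IQ3neg_1910B. In IQ3pos_1910A their defining factor Pou2f3 stood at 0.0573 CPM and the channel gene Trpm5 at 0.0645 CPM. The 3 most abundant tuft markers, Rgs13, Dclk1 and Avil, were still present there, at 103, 9.38 and 17.1 CPM. Such low levels in that library were not confined to tuft markers: Ptprc, listed for non-epithelial cells, stood at 0.0824 CPM. IQ3pos_1910A was the lowest library for the tuft sum and for Foxa2. The part of tuft cells in the Foxa2 values was not tested. Within a library Foxa1 exceeded Foxa2 4.06-fold and 59.0-fold in IQ3pos_1909A and IQ3pos_1910A, against 2.73-fold and 3.07-fold in IQ3neg_1909B and IQ3neg_1910B.

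**Figure D4:**
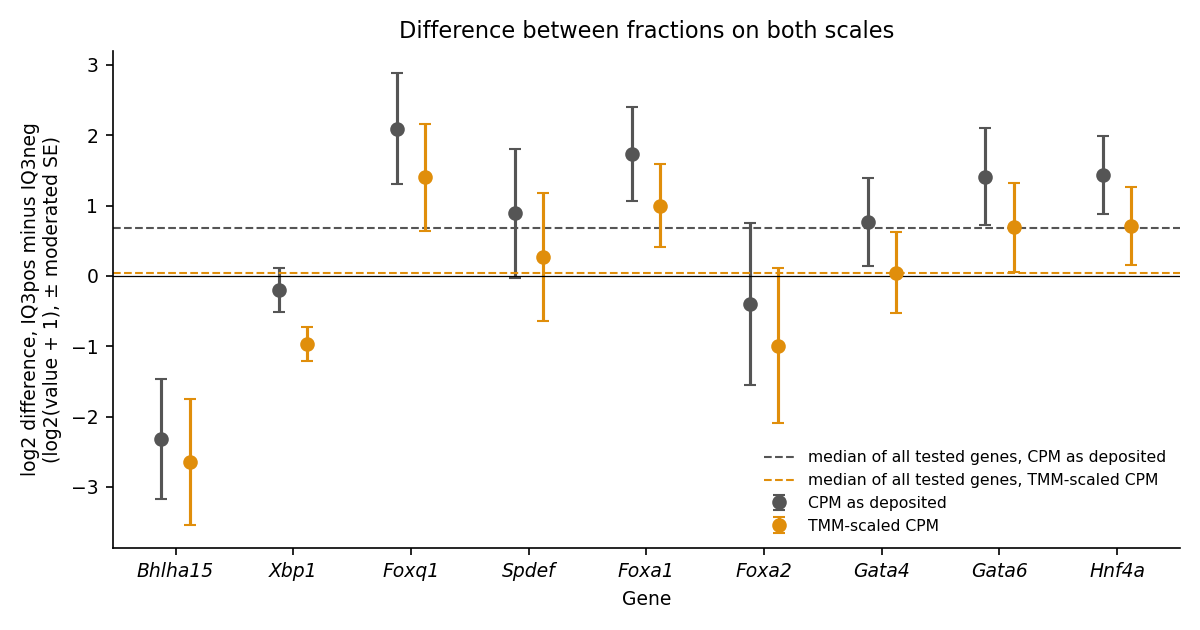
Log2 difference (IQ3pos minus IQ3neg, vertical axis) of the 9 tested genes with limma's moderated SE (n = 2 libraries per fraction), in CPM as deposited (grey) and TMM-scaled CPM (orange); dashed lines mark the median of all tested genes at 0.68 and 0.04. Bhlha15 lies below both lines on both scales, Foxq1 and Foxa1 above, and Gata4 and Spdef close to the line of their own scale.

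The GATA genes ran nearly level in IQ3pos. Gata4 stood at 24.2 and 26.8 CPM in IQ3pos_1909A and IQ3pos_1910A, against 10.01 and 20.9 CPM in IQ3neg_1909B and IQ3neg_1910B. Gata6 stood at 26.7 and 30.3 CPM in the IQ3pos libraries, against 6.21 and 16.05 CPM in the IQ3neg libraries. In CPM both were higher in both IQ3pos libraries, at 0.77 (SE 0.62, limma adjusted p = 0.493) for Gata4 and 1.41 (SE 0.69, adjusted p = 0.287) for Gata6. With TMM-scaled CPM Gata4 overlapped, at 0.05 (SE 0.57), and Gata6 stayed higher at 0.69 (SE 0.63, adjusted p = 0.609). The ratio of Gata4 to Gata6 was 0.909 and 0.887 in IQ3pos, against 1.61 and 1.30 in IQ3neg. Gata6 lies on chromosome 18 at 11052064 to 11085635 and shares 93 exon bases with the antisense transcript 1010001N08Rik, which stood at 43.5 and 54.4 CPM in IQ3pos and 17.5 and 21.5 CPM in IQ3neg. Reads in those bases cannot be told apart without strand, and the antisense gene followed the same order as Gata6.

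Hnf4a differed by nearly the same fold between both pairs of pools. Its level was 34.4 and 30.5 CPM in IQ3pos_1909A and IQ3pos_1910A, against 11.7 and 11.0 CPM in IQ3neg_1909B and IQ3neg_1910B. The difference was 1.44 (SE 0.55, limma adjusted p = 0.200) in CPM and 0.71 (SE 0.55, adjusted p = 0.583) with TMM-scaled CPM, where the fractions did not overlap either. The excess was 2.93-fold and 2.79-fold among the 3-mouse and the 4-mouse pools in CPM, and 1.60-fold and 1.76-fold with TMM scaling. Hnf4a lies on chromosome 2 at 163506808 to 163572910. Bhlha15 was 390.2-fold and 1420.5-fold below Hnf4a in CPM in IQ3pos_1909A and IQ3pos_1910A, against 3.38-fold and 2.13-fold below it in IQ3neg_1909B and IQ3neg_1910B.

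For 5 pairs of members the log2 ratio of CPM + 1 within a library was compared between the fractions by an exact two-sided permutation test. With 2 libraries per fraction the smallest p of the exact permutation test is 0.333, so no pair could pass, and all 5 pairs gave p = 0.333 (0.333 after Benjamini-Hochberg adjustment over the 5). The difference of the mean log2 ratios, IQ3pos minus IQ3neg, was 2.14 for Foxa1 over Foxa2, -0.63 for Gata4 over Gata6, 1.20 for Foxq1 over Spdef, -2.11 for Bhlha15 over Xbp1 and -3.75 for Bhlha15 over Hnf4a. In all 5 pairs the IQ3pos and IQ3neg libraries did not overlap. The share of other gene pairs that do so was not computed, so this count has no background. Bhlha15 over Xbp1 and Bhlha15 over Hnf4a also share a gene and are not separate observations. The difference for Foxa1 over Foxa2 rested largely on IQ3pos_1910A, without which it was 0.54.

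**Figure D5:**
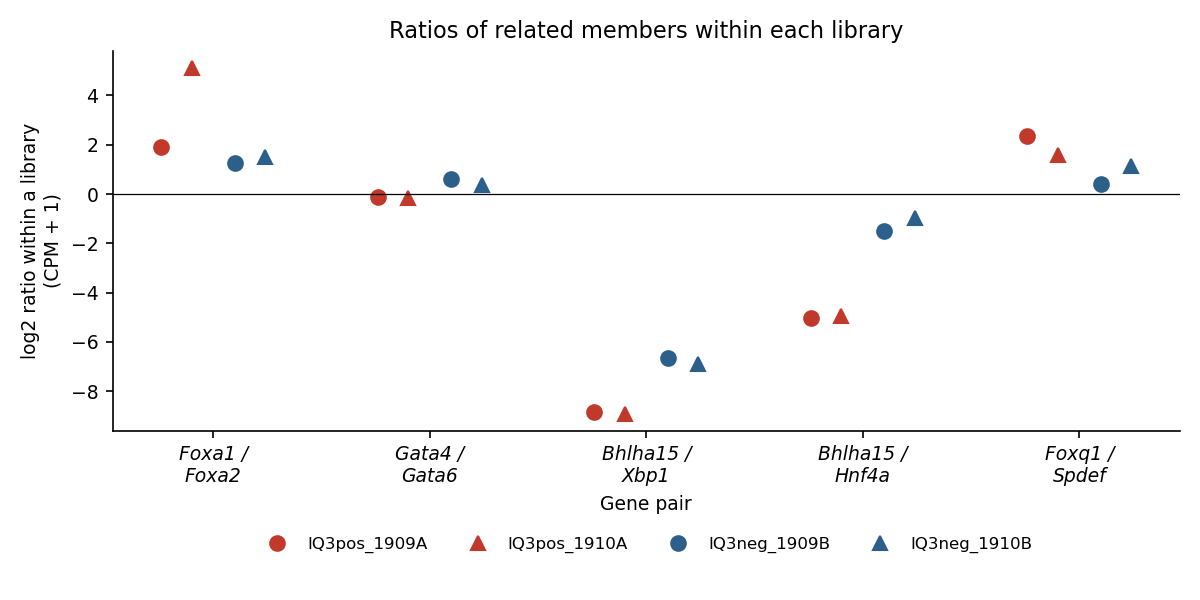
Log2 ratio of 2 genes within each library (vertical axis, CPM + 1) for 5 pairs, with IQ3pos in red, IQ3neg in blue, circles for the 3-mouse pools and triangles for the 4-mouse pools. The fractions do not overlap in any pair, and IQ3pos_1910A stands apart for Foxa1 over Foxa2 at 5.11, against 1.92 in IQ3pos_1909A.

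Beside these 10 genes, 26 other transcription factor genes of gut epithelia were listed and 19 were tested. In CPM 10 were higher and 1 lower in both IQ3pos libraries, beside 40.9% and 14.2% of all tested genes, and with TMM-scaled CPM 4 were higher and 2 lower, beside 24.7% and 23.0%. None passed limma or edgeR. Their median log2 difference was 0.95 in CPM beside 0.68 for all tested genes, and 0.29 beside 0.04 with TMM-scaled CPM. Klf4, a factor of surface mucous differentiation, stood at 118 and 93.6 CPM in IQ3pos_1909A and IQ3pos_1910A, against 23.3 and 17.0 CPM in IQ3neg_1909B and IQ3neg_1910B (difference 2.34, SE 0.43, limma adjusted p = 0.0666; 1.60 with TMM scaling). Esrrg, a nuclear receptor of parietal cells, stood at 212 and 99.1 CPM in IQ3pos, against 9.86 and 40.9 CPM in IQ3neg (difference 2.78, SE 0.76, adjusted p = 0.119; 2.04 with TMM scaling). Klf4 and Esrrg were higher in both IQ3pos libraries on both scales. Relatives of the members showed no such order after scaling: Foxa3 and Gata5 were higher in both IQ3pos libraries in CPM only, at TMM-scaled differences of 0.06 (SE 0.75) and 0.47 (SE 0.82). The 3 most abundant of the list were Sox9, Klf5 and Ehf. Sox9, a progenitor factor, stood at 534 and 440.2 CPM in IQ3pos, against 169 and 369 CPM in IQ3neg. Klf5 stood at 184 and 191 CPM in IQ3pos, against 41.2 and 93.4 CPM in IQ3neg, and Ehf at 129 and 152 CPM in IQ3pos, against 68.2 and 205 CPM in IQ3neg. Klf5 alone of these 3 did not overlap on either scale.

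The higher levels of Foxa1, Foxq1, Gata6 and Hnf4a in IQ3pos ran beside those of dividing-cell and parietal markers. The 6 markers of dividing cells summed to 1098 and 2630 CPM in IQ3pos_1909A and IQ3pos_1910A, against 95.7 and 208 CPM in IQ3neg_1909B and IQ3neg_1910B. The 7 parietal products summed to 7905 and 7525 CPM in IQ3pos, against 811 and 1437 CPM in IQ3neg. In CPM 6 of 7 were higher in both IQ3pos libraries, beside 40.9% of all tested genes. The 4 mucous neck products summed to 5175 and 8659 CPM in IQ3pos, against 1181 and 2168 CPM in IQ3neg. Tff2 made up most of the IQ3pos sums, at 4236 and 5492 CPM, against 415 and 596 CPM in IQ3neg. Muc6 overlapped in CPM, and with TMM-scaled CPM it was lower in both IQ3pos libraries (log2 difference -0.72, SE 0.32). Gkn3 overlapped on both scales. The part of these cell types in the members' differences was not tested.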

How the data were processed

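The deposited table gives CPM per gene symbol for the 4 libraries. Each column sums to 1000000, so the authors' values carry no composition factor. The submitters' processing notes name STAR 2.7.1a, featureCounts, Subread 2.0.0, edgeR and GRCm38/mm10, without role or order. No source used here gives the annotation or the strand setting. Whole reads were recovered by dividing each column by its step, the CPM of 1 read, and 100% of values lay within 0.05 read of a whole number. Reads carry no molecular identifiers, so intervals cover counting error only.

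Limma-trend (limma 3.58.1 in R 4.3.3), two-sided and without a block, compared IQ3pos with IQ3neg on log2(CPM + 1) over 13019 genes, those averaging 1 CPM or more, with 2 residual and 3.61 prior degrees of freedom and Benjamini-Hochberg adjustment at 0.05. Alternatives were TMM and DESeq2 scaling, omission of the 20 most abundant genes, other pseudocounts and filters, the library number as a block, each library left out, and edgeR 4.0.16 and DESeq2 1.42.0 on the recovered reads of 16831 genes. The fits were tested on simulated data. Positions and exon lengths come from GENCODE vM21 on GRCm38. Of a symbol with several rows the most abundant was used. The members and lists were chosen with earlier results of these data known, and lists are described by counts and medians. The rule named all members, the 3 most abundant genes of each other list and a set chosen by role; most marker lists are given here by their sums only. Herpud1, Serpini1, Onecut2, Cel, Cpa1, Cpb1, Pou2f3, Trpm5, Psca, Pga5, Atp4a, Atp4b and Krt5 were singled out after their values were seen where that rule did not name them.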

Additional observations from a re-analysis of the deposited data

How the results depend on the processing

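Limma on CPM called 0 of the 9 tested members, and the alternatives also called 0, except 1 (Xbp1) with the replicate block and TMM scaling and 1 (Bhlha15) in DESeq2. The labels do not say that the library number marks shared mice. Deviations of same-numbered libraries from their group means correlated at 0.140 over 13019 genes. The number also marks the pool size and goes with depth, so this correlation cannot show whether mice were shared. The block on CPM called 0 members in a fit that called 10.3% of all genes. The filter of 5 CPM called 0 members where 8.88% of all genes were called. With so few members, 0 calls at such shares say little. Bhlha15 was lower under all 21 alternatives that tested it, from -7.65 to -0.88, and Spdef, Foxq1, Foxa1, Gata6 and Hnf4a were higher under all of theirs. Xbp1 ranged from -0.54 to 0.14 in CPM when 1 library was left out, turning without IQ3neg_1910B. Foxa2 ranged from -1.51 to 0.71, turning without IQ3pos_1910A (0.71, and 0.085 with TMM scaling) and without IQ3neg_1910B (0.12). Gata4 turned to -0.17 without the 20 most abundant genes, -0.089 in edgeR, -0.017 in DESeq2 and -0.31 without IQ3neg_1909B with TMM scaling. The cause was not tested.

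Of the 111 other listed genes tested, 0 passed on CPM, but 13 with TMM scaling (0 when any 1 library was left out), 16 with DESeq2 scaling, 6 without the 20 most abundant genes, 28 at a pseudocount of 5, 38 at a filter of 5 CPM, 43 with the replicate block, 36 with the block and TMM scaling, 19 and 22 in edgeR with TMM and library size only, and 35 in DESeq2 (96 to 122 tested), fits that called 0.0846% to 12.7% of all genes. TMM scaling with a pseudocount of 0.1 was added after the data were seen and called 0. The 5 within-library ratios kept their sign without any 1 library and with no pseudocount, where Bhlha15 over Xbp1 was -6.40 and Bhlha15 over Hnf4a -8.12. Depth limits Nr5a2 and the IQ3pos values of Bhlha15.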

Other observations

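Genes of the pancreatic acinar lineage were present in IQ3neg. Ptf1a, an acinar transcription factor gene, stood at 0 and 0.0215 CPM in IQ3pos_1909A and IQ3pos_1910A, against 38.4 and 32.3 CPM in IQ3neg_1909B and IQ3neg_1910B. Rbpjl, the gene of its partner, stood at 0.639 and 0.0717 CPM in IQ3pos, against 47.2 and 34.3 CPM in IQ3neg. Limma gave adjusted p = 0.0659 for each, and edgeR called Rbpjl lower (adjusted p = 0.0362) but not Ptf1a (adjusted p = 0.0595). DESeq2 called both lower (adjusted p = 5.99e-16 for Ptf1a and 1.27e-06 for Rbpjl), in a fit that called 10.1% of all genes lower. EdgeR called 0.226% of all genes lower. In IQ3pos_1909A and IQ3pos_1910A, Ptf1a had 0 and 6 reads and Rbpjl 58 and 20. Both reached the mean of 1 CPM only through their IQ3neg levels, so these calls are no separate support. Both exceeded the CPM of Bhlha15 in each IQ3neg library. The lipase gene Cel stood at 15.4 and 0.369 CPM in IQ3pos, against 581 and 663 CPM in IQ3neg, while Cpa1 and Cpb1 did not exceed 0.0441 CPM in any library. What accounts for this was not tested.

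Some transcription factor genes of low level were seen mainly in 1 library. Sox2 stood at 5.14 and 0.0358 CPM in IQ3pos_1909A and IQ3pos_1910A, against 0 and 0.182 CPM in IQ3neg_1909B and IQ3neg_1910B. Hnf4g stood at 0.0110 and 6.42 CPM in IQ3pos, against 1.04 and 0.261 CPM in IQ3neg. Onecut2 stood at 0.0220 and 0.0215 CPM in IQ3pos, against 5.30 and 0 CPM in IQ3neg. Pdx1, a factor of the antrum, reached 1.39 CPM in IQ3pos_1910A, and Cdx1, an intestinal factor, did not exceed 0.0220 CPM in any library.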
